A study of Homo sapiens with 9 samples.

Results

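The genes described here are 5 fibroblast growth factors (FGF1, FGF2, FGF5, FGF7 and FGF10) and 5 genes of their receptor family (FGFR1, FGFR2, FGFR3, FGFR4 and FGFRL1). They were chosen by symbol, as family members, with earlier results of these data known, and are 10 of the 64253 genes counted. Each symbol matched a single Ensembl gene. Their RNA was measured in IMR90 cells, an established line of human fetal lung fibroblasts that stops dividing after a limited number of doublings. There were 9 sequencing libraries, 3 per group, named a, b and c. Control cells carried a lentiviral vector with no hairpin to either target, which one label calls empty and another names after GFP. The shRRM2 cells carried a short hairpin RNA against RRM2, a subunit of ribonucleotide reductase, and the series describes them as senescent through loss of deoxynucleotides. The shRRM2/shp16 cells carried the same hairpin plus one against p16, a CDKN2A product that restrains the cell cycle, and the series describes them as having bypassed senescence. All groups were grown in 2% oxygen, used at population doubling 30, given a second lentivirus 24 hours after the first, and selected for 7 days in 3 ug/mL puromycin. The labels do not say whether libraries a to c came from separate infections, so the p-values measure the spread between these libraries, which may be technical.

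Fibroblast growth factors are secreted proteins that bind receptor tyrosine kinases together with heparan sulfate, a sugar chain on cell surface proteins. Binding pairs the receptors and switches on their kinases, which signal through adaptor proteins to RAS and the kinase ERK. Target genes of this route include inhibitors of the route itself. In the lung, fibroblasts are a known source of FGF7 and FGF10, which act mainly on the epithelial splice form of FGFR2, while FGF2 acts broadly on mesenchymal cells.

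The libraries held 15770895 to 24873291 reads counted in genes. RRM2 stood at 485 ± 5.23 CPM (read counts scaled to a common library size, mean ± SD, n = 3) in control, 62.1 ± 1.86 in shRRM2 and 177 ± 3.00 in shRRM2/shp16, so that the cells with both hairpins kept 2.85-fold more RRM2 RNA than those with shRRM2 alone. CDKN2A, counted over all its transcripts and so not p16 alone, stood at 6.02 ± 0.113, 6.50 ± 0.464 and 4.28 ± 0.321 CPM. All 12 fibroblast markers examined were above a mean of 1 CPM, and their sum ran from 34820 to 36000 CPM in control, 31950 to 32910 in shRRM2 and 29220 to 29980 in shRRM2/shp16. Single fibroblast markers went both ways. From control to shRRM2/shp16, mean COL1A1 went from 12710 to 9330 CPM and VIM from 5334 to 2136. COL3A1 instead went from 1722 to 3631 CPM and PDGFRA from 263 to 709. Of 13 epithelial markers, 5 were above 1 CPM and 3 (KRT5, SFTPC and SCGB1A1) were at 0 in every library. The epithelial sum was 197 to 203 CPM in control, 237 to 241 in shRRM2 and 58.7 to 62.5 in shRRM2/shp16, most of it from the keratins KRT8, KRT18 and KRT19. Sums over 5 smooth muscle markers did not overlap between groups, at 1661 to 1711, 1190 to 1225 and 500.5 to 518.3 CPM. The 7 endothelial markers summed to 66.8 to 72.6, 69.5 to 73.8 and 115.9 to 124.8 CPM, nearly all of it from TEK, with CDH5 at 0 or 1 read. The 7 leukocyte markers summed to 2.37 to 3.44 CPM over the 9 libraries, with CD3E at 0. Their part in the differences below was not tested, and in bulk RNA fewer cells of a type and less RNA per cell cannot be told apart.

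The 4 ligands with more than a trace of RNA went opposite ways in shRRM2/shp16 cells, FGF2 and FGF7 up and FGF1 and FGF5 down. The stretches directly before their annotated start sites are shown to let their composition be compared. RefSeq promoter windows of 300 bases on GRCh38.p14 were found for 9 of the 10 genes. For each of the 4 ligands the most upstream window was taken and only the bases before every annotated start are printed, 5′ to 3′ on the strand of the gene, with CG dinucleotides in capitals.
FGF2, chr4:122826581-122826681, plus strand: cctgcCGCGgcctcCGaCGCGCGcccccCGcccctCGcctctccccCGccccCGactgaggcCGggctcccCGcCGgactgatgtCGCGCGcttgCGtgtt
FGF7, chr15:49422992-49423095, plus strand: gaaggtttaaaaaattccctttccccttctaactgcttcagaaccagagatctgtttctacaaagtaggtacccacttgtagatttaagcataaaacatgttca
FGF5, chr4:80266338-80266587, plus strand: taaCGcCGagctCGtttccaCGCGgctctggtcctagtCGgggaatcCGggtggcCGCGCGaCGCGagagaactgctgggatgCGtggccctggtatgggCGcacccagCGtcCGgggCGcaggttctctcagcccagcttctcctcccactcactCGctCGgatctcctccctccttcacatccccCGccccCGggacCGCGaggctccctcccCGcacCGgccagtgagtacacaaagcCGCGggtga
FGF1, chr5:142698071-142698320, minus strand: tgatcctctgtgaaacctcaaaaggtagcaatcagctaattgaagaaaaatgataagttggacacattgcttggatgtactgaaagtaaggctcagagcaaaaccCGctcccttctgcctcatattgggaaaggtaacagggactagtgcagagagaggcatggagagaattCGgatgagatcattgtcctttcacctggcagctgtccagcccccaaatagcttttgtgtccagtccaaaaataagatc

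In these most upstream windows, the 2 ligands that rose were unlike each other, and so were the 2 that fell. The whole FGF2 window was 74.7% G and C with 41 CG dinucleotides, whereas the FGF7 window was 40.3% G and C with 4. Among the falling pair, the FGF5 window was 67.0% G and C with 31 CG dinucleotides and the FGF1 window 44.3% with 2. FGF1 and FGF5 also have windows at other start sites, which were 47.7%, 60.0% and 50.3% G and C for FGF1 and 50.3% for FGF5, so the contrast holds for the upstream windows only. Over all 35116 windows the median was 58.7% G and C with 14 CG dinucleotides. On searching both strands, the core TATA motif, TATAAA, was found in 11.5% of all windows. The AP-1 motif, spelled TGANTCA, was found in 7.71% and the GC box, spelled GGGCGG, in 45.0%. FGF2 held 3 GC boxes and FGF5 held 1, with no overlap with another motif, and no match was found in the FGF7 window or the most upstream FGF1 window. Of the other windows, the second of FGF5 held 2 TATA motifs and those of FGF1 at 60.0% and 50.3% G and C held 1 GC box each, the latter also 1 AP-1 motif. These are matches of letters and say nothing of binding.

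**Figure D1:**
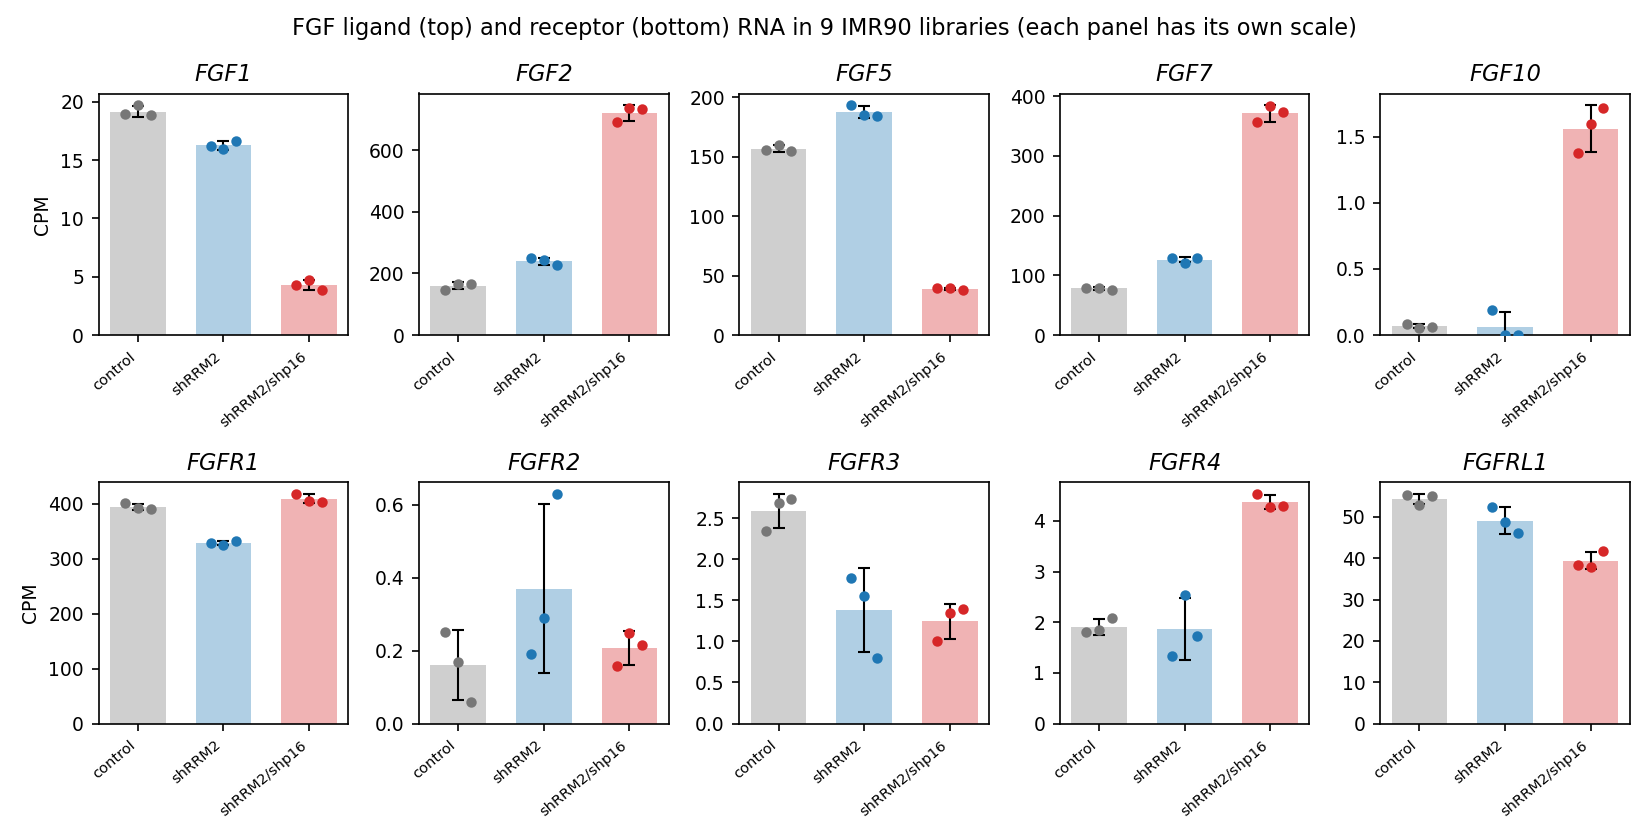
RNA of the 5 ligands (top row) and 5 receptors (bottom row), in CPM, in the 3 libraries of each group. Points are libraries, bars are means and error bars are 1 SD, each panel on its own scale starting at 0. FGF2 and FGF7 step up from control to shRRM2 to shRRM2/shp16, whereas FGF1 and FGF5 are lowest in shRRM2/shp16.

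FGF2, or basic fibroblast growth factor, a broadly acting mitogen for fibroblasts and endothelial cells (chromosome 4, 122826708 to 122898236, plus strand, GRCh38), had the most RNA per length of any member in both hairpin groups. It stood at 147.5, 167 and 166 CPM in control a, b and c, at 249, 244 and 226 CPM in shRRM2 and at 692, 738 and 734 CPM in shRRM2/shp16. Every shRRM2 library was above every control library, and every shRRM2/shp16 library was far above both, with no overlap. FGF2 was 1.5-fold higher in shRRM2 than in control (log2 0.58 ± 0.04 SE, adjusted p = 1.8e-17, edgeR) and 3.01-fold higher in shRRM2/shp16 than in shRRM2 (log2 1.59 ± 0.04, adjusted p = 1.1e-34). Against control, the cells with both hairpins held 4.52-fold more FGF2 RNA (edgeR adjusted p = 2.1e-39). For this gene the authors' deposited table, which sets shRRM2/shp16 against shRRM2, lists FGF2 at exactly 0 with a q-value of 1, an entry that may stand for a failed estimate, unlike the counts.

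Other annotated genes overlap FGF2. NUDT6, on the opposite strand with shared exons, had 35 to 115 reads per library, few beside the 2779 to 14826 reads of FGF2. AC021205.1, a processed pseudogene inside an FGF2 intron on the same strand and named after its values were seen, went from 1.27 ± 0.245 CPM in control to 3.46 ± 0.559 in shRRM2 and 8.04 ± 0.387 in shRRM2/shp16. It was higher in shRRM2 than in control by 1.46 (log2, edgeR adjusted p = 2.6e-08) and in shRRM2/shp16 than in shRRM2 by 1.22 (adjusted p = 2.3e-10), without shared exons.

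FGF7, or keratinocyte growth factor, made by mesenchymal cells and read by epithelial ones (chromosome 15, 49423096 to 49488775, plus strand), stepped up in the same order as FGF2. Control libraries stood at 78.9, 79.6 and 75.7 CPM, shRRM2 libraries at 128, 121 and 128 CPM and shRRM2/shp16 libraries at 357, 384.5 and 373 CPM. The 3 groups did not overlap. The shRRM2 cells held 1.61-fold more FGF7 RNA than control (log2 0.69 ± 0.04, edgeR adjusted p = 7.8e-20). In shRRM2/shp16 it was a further 2.95-fold higher than in shRRM2 (log2 1.56 ± 0.03, adjusted p = 3.3e-35), and 4.76-fold higher than in control (adjusted p = 1.6e-40). In the authors' deposited table the log2 change between those groups is 1.56 (q-value 0.000444). FGF7 has 8 annotated copies elsewhere in the genome, which together took 15 to 68 reads per library, and reads that align to several places were not counted in any gene.

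FGF10, a close relative of FGF7 that directs lung branching (chromosome 5, 44303544 to 44389706, minus strand), was at the limit of detection except in the cells with both hairpins. It had 2, 1 and 1 reads in control, 3, 0 and 0 in shRRM2, and 26, 32 and 32 in shRRM2/shp16, where it reached 1.56 ± 0.175 CPM. Each shRRM2/shp16 library was above all 6 others, and control and shRRM2 were both at or under the floor of 3 reads, so no fold between them is given. The depth-scaled ratio of summed reads was 26.3 for shRRM2/shp16 against shRRM2 (95% exact counting interval 8.72 to 130). Against control it was 22.9 (8.63 to 85.7). The interval covers counting error only, and no p-value is given, since FGF10 passed the filter on low counts only through shRRM2/shp16, where it is high. Without shRRM2 replicate a, the only shRRM2 library with reads, the excess of FGF10 in shRRM2/shp16 was at least 9.05-fold, computed against the floor of 3 reads per library. In the authors' deposited table FGF10 has a log2 change of 4.66 (q-value 0.459) for shRRM2/shp16 against shRRM2.

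FGF5, known as a brake on hair growth and as a mitogen (chromosome 4, 80266599 to 80336680, plus strand), rose slightly and then fell. It stood at 156, 160 and 155 CPM in control, at 193.5, 185 and 185 CPM in shRRM2 and at 39.5, 39.4 and 38 CPM in shRRM2/shp16. The shRRM2 libraries were all above the control libraries, and the shRRM2/shp16 libraries were far below both. FGF5 was 1.2-fold higher in shRRM2 than in control (log2 0.26 ± 0.03, edgeR adjusted p = 5.4e-09). It was 4.82-fold lower in shRRM2/shp16 than in shRRM2 (log2 -2.27 ± 0.04, adjusted p = 9.0e-39) and 4.02-fold lower than in control (adjusted p = 1.0e-36). CFAP299, which overlaps FGF5 on the same strand and shares exon sequence with it, moved likewise at far lower counts, from 1.57 to 3.35 to 1.08 CPM (log2 1.08, adjusted p = 1.2e-05, then -1.64, adjusted p = 1.7e-08, edgeR).

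FGF1, or acidic fibroblast growth factor, able to bind every signalling FGF receptor (chromosome 5, 142592178 to 142698070, minus strand), fell at each step. Control libraries held 18.9, 19.7 and 18.8 CPM, shRRM2 libraries 16.2, 15.9 and 16.6 CPM and shRRM2/shp16 libraries 4.28, 4.73 and 3.87 CPM. No group overlapped another. The fall from control to shRRM2 was small, 1.18-fold (log2 -0.24 ± 0.08, edgeR adjusted p = 0.00677), and did not pass the threshold in limma fits on the deposited RPKM with a pseudocount of 0.1 or without the mismatched column (adjusted p = 0.0706 and 0.0538). From shRRM2 to shRRM2/shp16 it fell 3.78-fold (log2 -1.92 ± 0.10, edgeR adjusted p = 6.8e-21).

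**Figure D2:**
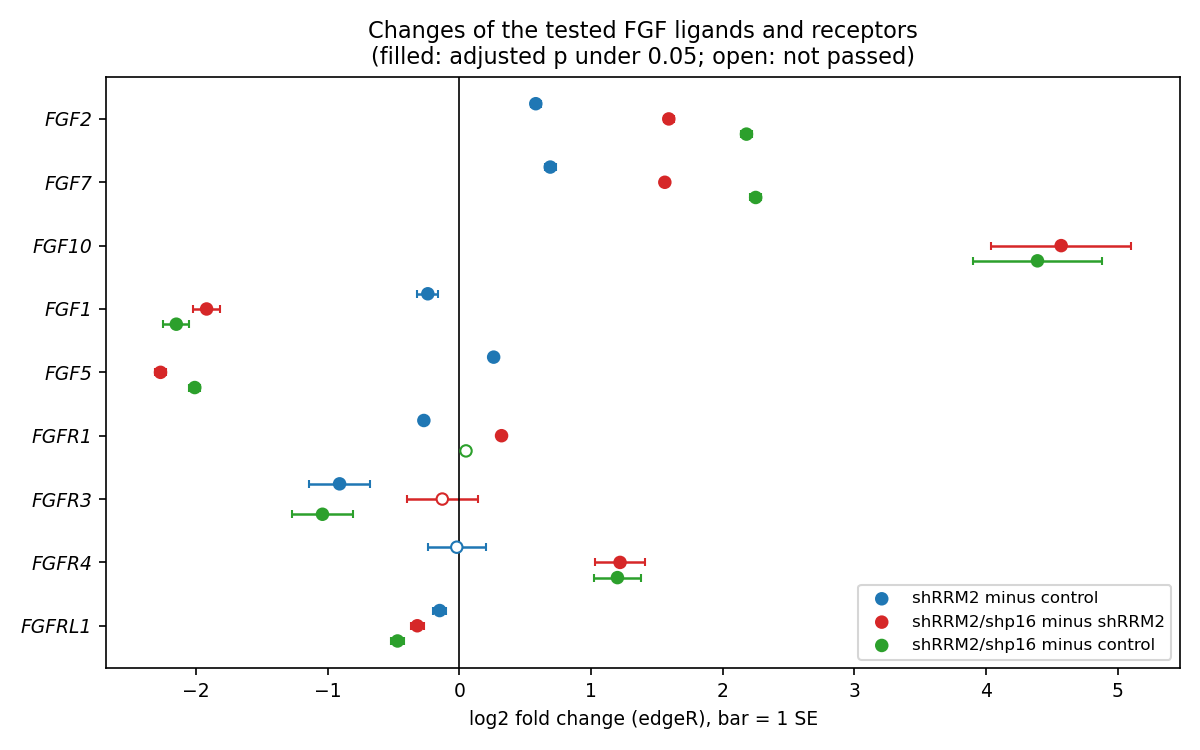
Log2 fold change with 1 SE (horizontal axis) of the 9 tested members (vertical axis) in the 3 comparisons, filled where the adjusted p is under 0.05. FGF2, FGF7 and FGF10 lie to the right for shRRM2/shp16 against shRRM2 and FGF1 and FGF5 to the left. For FGF1, FGF2, FGF5 and FGF7 the shRRM2 changes against control lie nearer to 0. FGFR3 is the reverse, at -0.91 for shRRM2 against control and -0.13 for shRRM2/shp16 against shRRM2. FGF10 is not drawn for shRRM2 against control, where both groups are at the floor. Its filled points in the other comparisons are no support, since FGF10 passed the filter only through shRRM2/shp16, where it is high.

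Counts divided by gene length as well (RPKM, CPM per kilobase) allow ligands to be set against each other. The 5 ligands together came to 65.2 ± 1.91 RPKM in control, 88.7 ± 2.45 in shRRM2 and 170 ± 5.81 in shRRM2/shp16, with no overlap between groups. FGF5 made up 40.2% ± 0.813 of the ligand RPKM in control, 35.3% ± 0.235 in shRRM2 and 3.82% ± 0.181 in shRRM2/shp16. FGF2 went from 36.2% ± 1.58 to 39.8% ± 1.18 and 62.6% ± 0.342, and FGF7 from 18.0% ± 0.675 to 21.3% ± 0.829 and 32.8% ± 0.245. The leading ligand was therefore FGF5 in control and FGF2 in both hairpin groups. FGF1 supplied 5.58%, 3.48% and 0.478% of the sum, and FGF10 0.305% in shRRM2/shp16.

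The level of FGF2 relative to FGF7 was similar in the 3 groups, at 2.02 ± 0.161 in control, 1.87 ± 0.126 in shRRM2 and 1.91 ± 0.0238 in shRRM2/shp16, with overlapping ranges. Relative to FGF5, by contrast, FGF2 went from 0.903 ± 0.0570 to 1.13 ± 0.0406 and 16.4 ± 0.819. These ratios of RPKM are descriptions, and the difference between them was not tested.

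**Figure D3:**
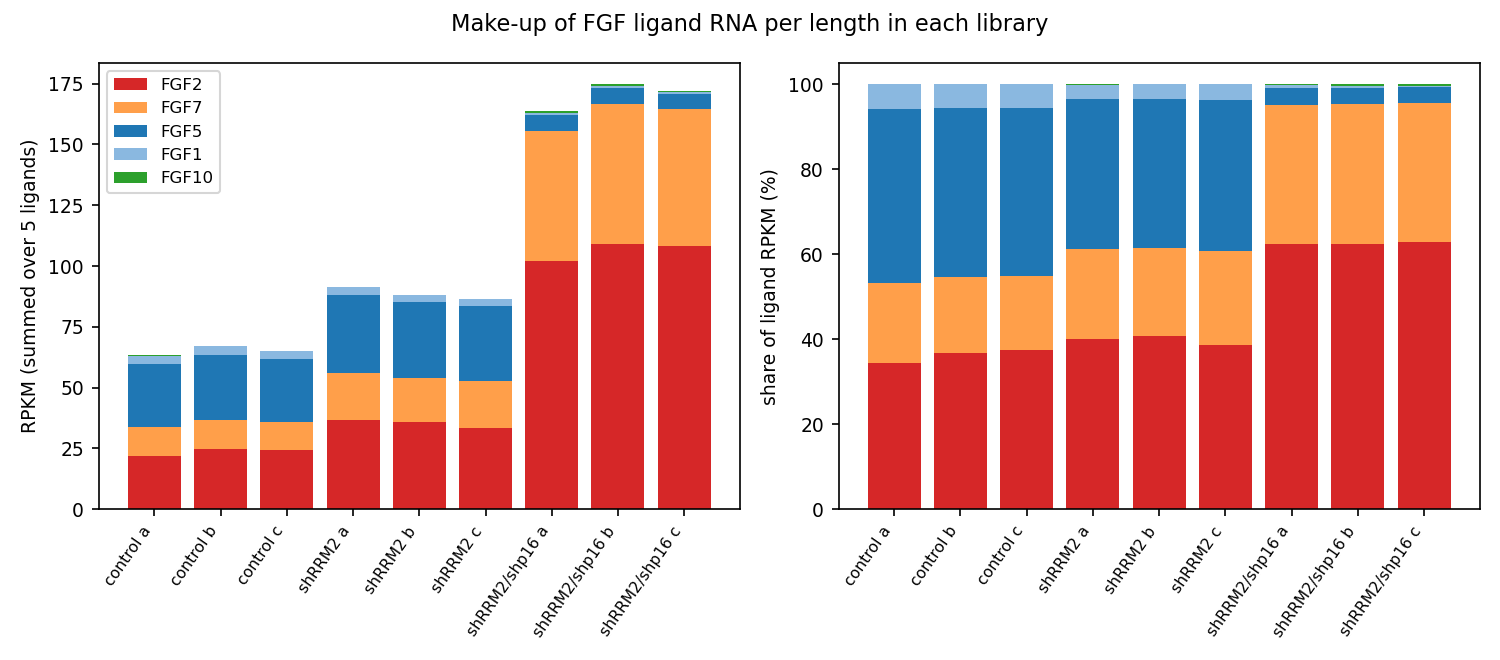
Ligand RNA per length in each of the 9 libraries, as stacked RPKM (left) and as percent of the ligand sum (right), with 1 colour per ligand. The left stacks rise from 65.2 RPKM on average in control to 170 in shRRM2/shp16, and the FGF5 share on the right shrinks from 40.2% to 3.82%.

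Among the receptors, FGFR1, the main FGF receptor of mesenchymal cells (chromosome 8, minus strand), had the most RNA. It stood at 401, 391 and 390 CPM in control, at 327.5, 325 and 332 CPM in shRRM2 and at 418, 404 and 404 CPM in shRRM2/shp16. The shRRM2 libraries were the lowest, and the shRRM2/shp16 libraries lay just above those of control. FGFR1 fell 1.2-fold from control to shRRM2 (log2 -0.27 ± 0.03, edgeR adjusted p = 3.4e-11) and was 1.25-fold higher in shRRM2/shp16 than in shRRM2 (log2 0.32 ± 0.03, adjusted p = 1.6e-13). Its log2 difference of 0.05 ± 0.03 between shRRM2/shp16 and control did not pass (adjusted p = 0.0936, edgeR), although it did without control replicate a (0.07, adjusted p = 0.0335), with at least 10 counts in every library (adjusted p = 0.0163), with only the 6 libraries compared (adjusted p = 0.031) and in each limma fit on the deposited RPKM. In the authors' deposited table FGFR1 has a log2 change of 0.37 (q-value 0.0620) for shRRM2/shp16 against shRRM2. LETM2, on the opposite strand with shared exon sequence, had 98 to 157 reads per library.

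FGFRL1, a family member that binds FGFs but lacks a kinase domain (chromosome 4, 1009936 to 1026897, plus strand), was next. It stood at 55.2, 52.9 and 55.05 CPM in control, at 52.5, 48.7 and 46.1 CPM in shRRM2 and at 38.5, 38 and 41.8 CPM in shRRM2/shp16. The cells with both hairpins were lowest, and fell 1.24-fold against shRRM2 (log2 -0.32 ± 0.05, edgeR adjusted p = 1.5e-06) and 1.38-fold against control (adjusted p = 8.6e-11). The small fall from control to shRRM2 (log2 -0.15 ± 0.05, adjusted p = 0.00943, edgeR) rested on replicate c of shRRM2, without which it was -0.10 (adjusted p = 0.114), and it did not pass in limma fits on the deposited RPKM (adjusted p = 0.139 to 0.368).

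FGFR3 and FGFR4, receptors best known from cartilage and from liver, were rare here, with 14 to 56 and 21 to 86 reads per library. FGFR3 (chromosome 4, 1793293 to 1808872, plus strand) stood at 2.35, 2.68 and 2.74 CPM in control, at 1.78, 1.56 and 0.803 CPM in shRRM2 and at 1.004, 1.34 and 1.40 CPM in shRRM2/shp16. Control was above both hairpin groups, which overlapped each other. FGFR3 was 1.87-fold lower in shRRM2 than in control (log2 -0.91 ± 0.23, edgeR adjusted p = 8.2e-04), and its log2 difference of -0.13 ± 0.27 between the hairpin groups did not pass (adjusted p = 0.695). In shRRM2/shp16 it was 2.05-fold lower than in control (log2 -1.04 ± 0.23, edgeR adjusted p = 1.3e-04). That change was -1.11 to -0.90 when 1 library was left out, so it was not always 2-fold.

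FGFR4 (chromosome 5, 177086886 to 177098144, plus strand) was instead set apart in the cells with both hairpins. It stood at 1.80, 1.84 and 2.08 CPM in control, at 1.33, 2.54 and 1.72 CPM in shRRM2 and at 4.54, 4.28 and 4.30 CPM in shRRM2/shp16. Control and shRRM2 overlapped (log2 -0.02 ± 0.22, edgeR adjusted p = 0.958), while shRRM2/shp16 was 2.32-fold above shRRM2 (log2 1.22 ± 0.19, adjusted p = 2.9e-07). In the authors' deposited table the log2 change of FGFR4 between those groups is 0.59 (q-value 0.322), which is smaller and not significant. For FGF1, FGF5 and FGFRL1 that table has -1.93, -2.37 and -0.25 (q-values 0.0042, 0.000444 and 0.00855), all marked significant. It lists FGFR2 and FGFR3 at -0.36 and -0.32, not marked significant. FGFR2, whose epithelial form reads FGF7 and FGF10 (chromosome 10, 121478334 to 121598458, minus strand), had too few reads to be tested, 10 in all in control, 19 in shRRM2 and 12 in shRRM2/shp16. The depth-scaled ratio of its summed reads was 2.20 for shRRM2 against control (95% exact counting interval 0.974 to 5.30) and 0.554 for shRRM2/shp16 against shRRM2 (0.245 to 1.2), so no difference was detectable at this depth.

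Receptor RPKM summed to 45.1 ± 0.611 in control, 38.4 ± 0.647 in shRRM2 and 42.9 ± 0.635 in shRRM2/shp16, a narrower spread than that of the ligands. FGFR1 made up 68.8% ± 0.480, 67.3% ± 1.57 and 75.1% ± 1.11 of it, and FGFRL1 29.1% ± 0.424, 30.8% ± 1.49 and 22.2% ± 1.07. In control the order of RPKM over all members was FGFR1 (31.0), FGF5 (26.2), FGF2 (23.6), FGFRL1 (13.1), FGF7 (11.7), FGF1 (3.63), FGFR3 (0.536) and FGFR4 (0.396), with no overlap between neighbours. FGF10 and FGFR2 came last and overlapped. In shRRM2 cells FGF2 led at 35.3 ± 1.75, before FGF5, FGFR1 and FGF7, and FGFR4 and FGFR3 overlapped. In shRRM2/shp16 cells FGF2 (106.5 ± 3.79) and FGF7 (55.8 ± 2.08) both stood above FGFR1 (32.2 ± 0.662), and FGF5 had dropped to 6.50 ± 0.140, below FGFRL1 (9.51 ± 0.496).

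Counted over the 10 members, of which 9 passed the filter on low counts, 3 were higher and 4 lower in shRRM2 than in control at an edgeR adjusted p of 0.05, against 29.0% higher and 31.8% lower (60.9% in all) of the 16561 genes tested. No member changed 2-fold there, against 10.1% of genes (6.81% higher and 3.26% lower). In shRRM2/shp16 against shRRM2, 5 were higher and 3 lower (background 31.9% and 29.1%, 61.1% in all), and 4 were at least 2-fold higher and 2 at least 2-fold lower (background 5.19% and 6.58%). In shRRM2/shp16 against control, 4 were higher and 4 lower (30.0% and 32.4%, 62.4% in all), with 4 at least 2-fold higher and 3 at least 2-fold lower (6.59% and 6.0%). The 3 libraries of each group did not overlap for 7, 8 and 9 of the 10 members in these comparisons, against 63.6%, 64.7% and 66.2% of tested genes. The counts of higher, of at least 2-fold higher and of not overlapping members in both comparisons with shRRM2/shp16 include FGF10, which passed the filter only through that group. The members were chosen with earlier results of these data known, so the 2-fold counts are descriptions and no test of the family. Since most genes passed the threshold in each comparison, the number of members called is not itself a result about them, and the comparisons share libraries. The median log2 fold change of the tested members was -0.15, 0.32 and 0.05, beside 0.00, 0.01 and 0.01 for all tested genes. These medians over 9 genes include FGF10, which is at the floor in control and shRRM2, and are no support for a shift of the members.

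Other genes of the pathway moved both ways. Of 100 genes in 6 lists, 74 were tested, and 30 were higher and 17 lower in shRRM2 than in control (median log2 change 0.09), against 29.0% and 31.8% of all tested genes. In shRRM2/shp16 against shRRM2, 27 were higher and 30 lower (median -0.03), against 31.9% and 29.1%. Among the 17 other FGF family genes, not all of them ligands, 3 passed the filter and 1 was called, FGF14, an intracellular member that does not signal through the receptors. It stood at 0.152 ± 0.0280, 0.417 ± 0.0240 and 1.25 ± 0.0752 CPM, on 2 to 4, 7, and 22 to 26 reads per library. FGF14 passed the filter only through shRRM2/shp16, where it is high, so its call is no support.

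Of 21 binding proteins and coreceptors, 16 were tested. Of these, 6 were higher and 5 lower in shRRM2 than in control (29.0% and 31.8% of all tested genes). In shRRM2/shp16 against shRRM2, 7 were higher and 7 lower (31.9% and 29.1%). The cell surface heparan sulfate proteoglycans GPC4 and GPC1 parted. GPC4 rose from 8.94 ± 0.494 to 15.2 ± 0.861 and 28.5 ± 0.526 CPM (log2 0.77, adjusted p = 2.2e-10, then 0.90, adjusted p = 4.5e-15, edgeR). GPC1 went from 215.5 ± 8.80 to 273 ± 9.12 CPM and then fell to 112 ± 3.73 (log2 0.34, adjusted p = 4.2e-12, then -1.29, adjusted p = 2.2e-31, edgeR). KL, the coreceptor klotho for FGF23, stood at 0.231 ± 0.0968, 0.263 ± 0.167 and 0.999 ± 0.298 CPM, on 2 to 7, 2 to 7 and 13 to 26 reads per library, and passed the filter only through shRRM2/shp16. FLRT1, a membrane protein reported to bind FGF receptors, had 10 to 20 reads per library in control, 3 to 8 in shRRM2 and 0 to 8 in shRRM2/shp16, and passed the filter only through control. The calls of KL and FLRT1 are in the counts above and are no support.

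Heparan sulfate enzymes, which build and trim the chains that FGFs need, held 10 higher and 3 lower among 17 tested (21 listed) relative to control in shRRM2 (29.0% and 31.8% of all genes), and 5 higher and 8 lower in shRRM2/shp16 against shRRM2 (31.9% and 29.1%). NDST2 had 7 to 9 reads per library in control, 15 to 18 in shRRM2 and 8 to 19 in shRRM2/shp16. It passed the filter through shRRM2, where it is high. Its call against control is in the counts here and over all 6 lists, and is no support. EXTL1, of the chain-building family, rose from 2.27 ± 0.310 to 9.45 ± 0.884 CPM and then fell to 0.793 ± 0.182 (log2 2.08, adjusted p = 1.9e-16, then -3.56, adjusted p = 2.0e-21, edgeR). SULF1, an extracellular enzyme that removes 6-O-sulfate and is known to weaken FGF2 signalling, was named after its values were seen. It stood at 32.1 ± 0.317 CPM in control, 115 ± 5.97 in shRRM2 and 15.4 ± 0.497 in shRRM2/shp16 (log2 1.84, adjusted p = 4.1e-32, then -2.90, adjusted p = 8.2e-38, edgeR). EXT1, a chain polymerase, went the way of FGF2, from 326 ± 0.294 to 369 ± 10.9 and 596 ± 1.83 CPM (log2 0.18, adjusted p = 3.9e-07, then 0.69, adjusted p = 2.0e-25, edgeR). HS3ST3A1, a sulfotransferase, was lower in shRRM2 than in control (19.96 ± 0.358 against 13.2 ± 1.52 CPM, log2 -0.59, edgeR adjusted p = 2.2e-08).

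**Figure D4:**
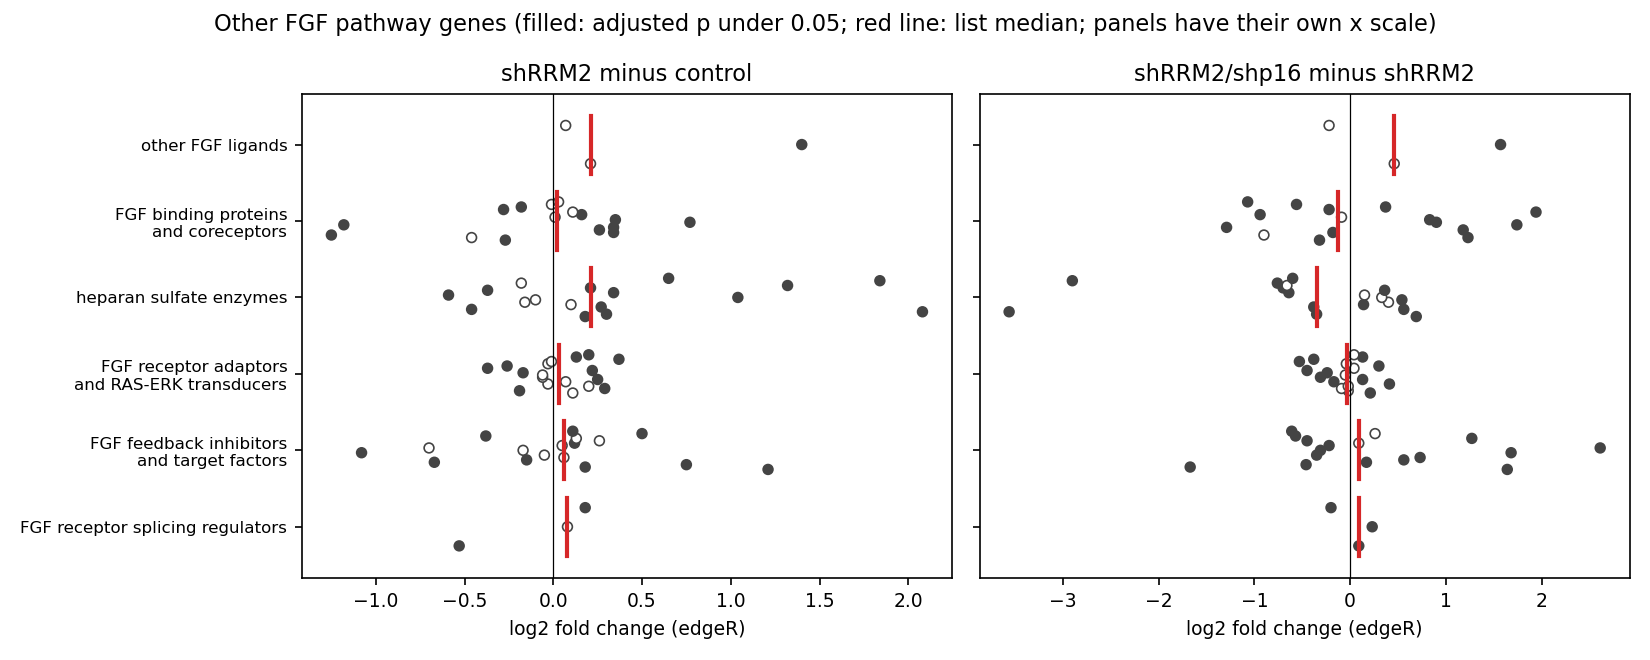
Log2 fold change (horizontal axes, each panel with its own scale) of the tested genes of 6 FGF pathway lists (rows), for shRRM2 against control (left) and for shRRM2/shp16 against shRRM2 (right). Points are genes, filled where the adjusted p is under 0.05, and red lines are list medians, which lie between -0.35 and 0.46 with genes on both sides of 0 in most rows. The filled points of FGF14, KL, FLRT1 and NDST2 are no support, since each passed the filter through the group where it is high. They also enter the medians.

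Of the 19 adaptors and RAS-ERK transducers, 18 were tested. In shRRM2 against control 6 were higher and 4 lower, with the adaptor SHC1 highest (log2 0.37, edgeR adjusted p = 2.6e-15) and NRAS lowest (log2 -0.37, adjusted p = 1.1e-11). In shRRM2/shp16 against shRRM2 5 were higher and 6 lower, with the docking protein GAB1 highest (log2 0.41, edgeR adjusted p = 1.6e-06). No gene of this list changed 2-fold in either comparison, against 10.1% and 11.8% of all tested genes. Of all tested genes, 29.0% were higher and 31.8% lower in the first comparison, and 31.9% and 29.1% in the second.

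Feedback inhibitors and target factors, all 17 of them tested, did not move as a block. In shRRM2 against control 6 were higher and 4 lower (29.0% and 31.8% of all tested genes). In shRRM2/shp16 against shRRM2, 7 were higher and 8 lower (31.9% and 29.1%). DUSP4, a phosphatase that switches off ERK in the nucleus, rose from 3.44 ± 0.341 to 7.93 ± 0.528 and 24.8 ± 1.66 CPM (log2 1.21, adjusted p = 3.2e-11, then 1.64, adjusted p = 9.2e-21, edgeR). DUSP5, another nuclear ERK phosphatase, stood at 47.4 ± 0.788, 53.8 ± 1.57 and 17.0 ± 0.703 CPM, and fell in shRRM2/shp16 against shRRM2 (log2 -1.67, edgeR adjusted p = 1.1e-27). The immediate early factor FOS fell from 7.70 ± 0.456 to 3.63 ± 0.266 CPM in shRRM2 (log2 -1.08, edgeR adjusted p = 6.5e-10) and stood at 11.6 ± 0.708 in shRRM2/shp16 (log2 1.68, adjusted p = 1.3e-16). SHISA2, which holds immature FGF receptors inside the cell, was higher in shRRM2/shp16 than in shRRM2 (3.30 ± 0.528 against 0.537 ± 0.166 CPM, log2 2.61, edgeR adjusted p = 1.2e-11).

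The Sprouty inhibitors and DUSP6, the cytoplasmic ERK phosphatase, are classical FGF targets and were named after their values were seen. In shRRM2/shp16 against shRRM2, SPRY1 rose from 16.4 ± 2.01 to 39.2 ± 1.77 CPM (log2 1.27, edgeR adjusted p = 1.8e-19). SPRY2 fell from 31.6 ± 0.727 to 21.2 ± 2.03 CPM (log2 -0.57, adjusted p = 3.3e-10, edgeR) and SPRY4 from 150 ± 1.89 to 98.7 ± 2.12 CPM (log2 -0.61, adjusted p = 2.2e-19). DUSP6 went from 36.3 ± 4.20 CPM in control to 61.5 ± 2.10 in shRRM2 and 44.8 ± 1.24 in shRRM2/shp16 (log2 0.75, adjusted p = 1.0e-15, then -0.46, adjusted p = 7.8e-10, edgeR). SPRY3 did not pass in shRRM2/shp16 against shRRM2 (log2 0.26, edgeR adjusted p = 0.166). The ETV factors of the same list, also named after their values were seen, went both ways there. ETV1 and ETV4 rose (log2 0.56 and 0.73, edgeR adjusted p = 3.9e-14 and 5.1e-13) and ETV5 fell (log2 -0.35, adjusted p = 8.6e-09).

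Gene counts do not resolve the epithelial and mesenchymal splice forms of the receptors. Of 5 regulators of that choice, the epithelial factors ESRP1 and ESRP2 had 0 to 7 and 4 to 10 reads per library and were not tested. PTBP1, a splicing repressor, fell from 408 ± 1.09 to 283 ± 1.72 CPM in shRRM2 (log2 -0.53, edgeR adjusted p = 8.1e-21). RBFOX2 rose slightly and fell back (log2 0.18, adjusted p = 0.0413, then -0.20, adjusted p = 0.0241, edgeR), and PTBP2 was higher in shRRM2/shp16 than in shRRM2 (log2 0.23, adjusted p = 0.00445).

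The genes whose profile over the 9 libraries was most like that of a member were taken by Pearson r of log2 CPM, as a description, among tested genes whose log2 CPM averaged 2 or more. FGF2 was most like TFPI, an inhibitor of coagulation (r = 0.999), and ACVR2B, an activin receptor (r = 0.998). FGF7 was most like IGFBP5, an IGF binding protein at 6631, 9198 and 20080 CPM in the 3 groups, and NRG1, a ligand of ERBB receptors at 29.6, 59.8 and 343 CPM (r = 0.999 each). FGF5 was most like CDC42EP3 and TNS1, which bind or act on the actin cytoskeleton (r = 0.999 each), and FGF1 was most like LRRC15 (r = 0.999) and SPTLC2 (r = 0.998). The 9 libraries fall into 3 groups, and the genes named are not alone at a high r. Of the 11288 genes compared, 76 (0.673%) had an r above 0.99 with FGF2 and 82 (0.726%) with FGF7. With FGF5 there were 148 (1.31%) and with FGF1 117 (1.04%). The less abundant FGFR3 was most like EIF3M (r = 0.970) and CHMP3 (r = 0.968), and FGFR4 like PRPF40B (r = 0.985) and LDB1 (r = 0.979).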

How the data were processed

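RNA was ribosome-depleted and sequenced as stranded libraries, per the labels' protocols. For every library the authors deposited unnormalized counts by Ensembl gene, in the layout of HTSeq, per the file headers. The submitters' processing notes name TopHat2 2.0.9, Cufflinks 2.0.2, Cuffdiff and GRCh38, while the annotation release and strand setting of the counts are not given in the sources used here, so reads of overlapping or antisense genes may be misassigned. The authors also deposited log2 RPKM values, which are the log2 of a scaled RPKM plus 1, calculated back from the counts, in 8 of 9 columns (100% of genes within 1%). In the remaining column, shRRM2 replicate c, 5.25% of genes matched the counts, and the log2 values serve only in alternative fits. Their table also holds a log2 fold change with its score (test statistic, not used here), p-value and q-value, deposited for shRRM2/shp16 against shRRM2. 0 columns of per-sample values were left without a sample.

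Lines naming no gene were left out: reads outside genes were 17.65% to 28.83% and ambiguous reads 3.74% to 6.02% of unique ones, and alignments that were not unique 40.35% to 44.87% of all entries. Reads outside genes did not overlap between groups, at 17.65% to 18.92% in control, 27.7% to 28.83% in shRRM2 and 23.48% to 24.35% in shRRM2/shp16. The part of this in the differences between groups was not tested, and it cannot be told apart from the hairpins. The main test was that of edgeR 4.0.16 under R 4.3.3 (filterByExpr, TMM, glmQLFit and glmQLFTest, all 9 libraries, 6 residual degrees of freedom, two-sided). Benjamini-Hochberg adjustment ran over 16561 genes holding 99.8% of counts, with a threshold of 0.05. CPM uses TMM-scaled totals, and RPKM as reported divides it by gene lengths recovered from the deposited values. Replicates differed by more than counting noise (chi-square per degree of freedom 1.44 to 2.97 over 9 pairs). Reads carry no molecular identifiers. Positions come from GENCODE 29. The members and lists were chosen with earlier results of these data known. Named were all members, the highest and lowest called gene of each list when shRRM2 was set against control and shRRM2/shp16 against shRRM2, and the 2 genes most like each member that changed 2-fold with a mean of at least 1 CPM. Some genes that the rule or the marker lists hold are not reported here. Alternatives were RLE size factors, DESeq2 1.42.0, other filters, only the 6 libraries compared, a replicate block, leaving out each library, and limma 3.58.1 on the deposited RPKM (no TMM factors), of which the fit with a pseudocount of 1 was chosen after seeing the data.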

Additional observations from a re-analysis of the deposited data

How the results depend on the processing

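Over all alternatives, 484 refitted log2 fold changes of members kept their direction and side of the threshold, 8 no longer passed (FGF1 and FGFRL1, shRRM2 against control), 8 newly passed (FGFR1, shRRM2/shp16 against control) and 10 changed sign, the cause of which was not tested. Neither of the differences behind those 10 passed in the reported edgeR fit. The 484 include refits of FGF10 in the comparisons with shRRM2/shp16. These are no support, since FGF10 passed the filter only through that group, where it is high. FGFR4 in shRRM2 against control was 0.02 with at least 10 counts required in every library, 5.1e-05 in limma on the deposited values, 0.03 and 0.07 in limma on the deposited RPKM with pseudocounts of 1 and 0.1, 0.01 with the 8 matching columns, and -0.30 to 0.17 when 1 library was left out. FGFR3 in shRRM2/shp16 against shRRM2 was -0.41 to 0.08 when 1 library was left out.

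Limma on the deposited RPKM, which carries no TMM factors, unlike the RPKM of the levels above, found 2 members lower in shRRM2 than in control with a pseudocount of 0.1, with a mean RPKM of at least 1 required, and with 8 columns, and 3 members higher in shRRM2/shp16 than in shRRM2 with that RPKM minimum, which tests fewer genes. Genes called lower in that comparison were 4825 by edgeR, 3213 on the deposited values and 2931 with the RPKM minimum, so that 52.3%, 62.4% and 62.3% of calls were higher. In shRRM2/shp16 against control, 48.1% of calls were higher by edgeR and 57.3% to 59.5% in these fits, where the median of all genes reached 0.11 (pseudocount 0.1). With the RPKM minimum, 3489 genes and 20 other pathway genes were lower there, against 5368 and 31. FGFR1 came to 28.5, 23.7 and 29.5 RPKM in control, shRRM2 and shRRM2/shp16 with its GENCODE exon length. FGFR4 and FGFR3, with 14 to 86 reads, FGF10 and FGFR2 are limited by depth.

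With a replicate block by library letter, 3 members were higher and 4 lower in shRRM2 than in control, and all 9 tested members had the same calls in each comparison. FGF10 is among these 9, and its calls are no support. The block changed the calls over all genes little. With the block 10101, 10134 and 10388 genes were called, against 10079, 10116 and 10339 without it. The deviations of same-letter libraries correlated at -0.02 to 0.049 over 9 pairs, so the letters give no sign of pairing.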
